A study of Drosophila melanogaster with 12 samples.

Results

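Transcripts of 10 genes that mark the notum and the adult muscle precursors were followed across wing discs of Drosophila melanogaster. The notum is the proximal region of the disc that forms the dorsal thorax, and its genes here are pnr, eyg, tup and ush. The adult muscle precursors are myoblasts that adhere to the notum epithelium, and their genes here are Him, twi, Mef2, htl, kon and zfh1. The genes were listed by symbol, and all 10 of the 10 had a row in the expression table and passed the filter on low values (a mean of at least 10 normalized counts), out of 10179 genes tested and 17869 rows with a gene ID.

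Total RNA was sequenced from 3 groups of 4 libraries, which the labels call biological replicates, each made from 150 pooled discs of L3 larvae collected at 25 °C 7 days after egg laying. The first group, called double RNAi where it is compared, carried nub-Gal4, UAS-mRFP and RNAi against both ecd and Xrp1. The second carried nub-Gal4, UAS-mRFP and RNAi against ecd, and the controls carried nub-Gal4 and UAS-mRFP with no RNAi named in the labels. All 12 libraries therefore share the driver and the red fluorescent reporter, and Xrp1 RNAi without ecd RNAi was not analysed here. ecd encodes a protein that acts with the spliceosomal protein Prp8, and Xrp1 encodes a stress-induced bZIP transcription factor. The driver acts in the nubbin domain, which covers the wing pouch, so that the notum and its myoblasts lie largely outside the cells that express the RNAi. The comparisons thus ask how transcripts of tissue beyond the driver's domain differ in a disc whose pouch carries the RNAi.

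In the notum, the GATA factor encoded by pnr specifies the medial region and activates proneural genes, while the protein encoded by ush binds it as a cofactor and the LIM homeodomain protein encoded by tup acts with it. The Pax-family factor encoded by eyg promotes notum growth. The myoblasts below this epithelium are held undifferentiated by twi, zfh1 and Him while they express the myogenic factor gene Mef2, and they receive FGF ligands from the epithelium through the receptor encoded by htl. In the pupa they fuse into the flight muscles.

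Facts about the libraries touch several values below. The ecd transcript was read at 1696 to 1825 normalized counts in libraries labelled ecd plus Xrp1 RNAi, 1423 to 1982 in those labelled ecd RNAi and 1420.3 to 1654 in control, so its level shows no drop under either RNAi label. The labels alone give every direction stated for ecd RNAi, and "with ecd RNAi" below means so labelled. Xrp1 stood at 4447 to 6048 normalized counts in libraries labelled ecd plus Xrp1 RNAi, at 18985 to 22964 in those labelled ecd RNAi and at 4511 to 5078 in control. The pouch gene nub was read in every library, at 11186 to 12759, 8159 to 12434 and 11917 to 13759.9 normalized counts in the same order of groups. The 8 fat body markers examined, of which 0 were at 0 in all libraries, summed to 3163 to 4175 normalized counts with ecd plus Xrp1 RNAi, 3432 to 31149 with ecd RNAi and 2499 to 78023 in control. Replicates 3 and 4 of ecd RNAi (26976.5 and 31149) and of control (78023 and 34280) held the most and are called the fat body-rich libraries below. Depth could not be read from the files, whose normalized counts are given after the authors' scaling. They summed to 29.1 to 32.3 M per library with ecd plus Xrp1 RNAi, 32.4 to 35.4 M with ecd RNAi and 26.5 to 29.0 M in control. Ribosomal RNA genes held 20.2% to 28.7% of the sum in each RNAi group and 16.5% to 19.8% in control. In a bulk disc, fewer cells of a type and less RNA per cell cannot be told apart.

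Values are the authors' normalized counts. Changes come from limma as log2 fold changes with their SE, fitted to log2(value + 1), with p adjusted over the 10179 genes. A gene is said to rise, fall or pass where the adjusted p was under 0.05. With ecd RNAi against control, 5 of the 10 genes fell (pnr, eyg, Him, twi and kon) and 0 rose, beside 25.4% of all genes tested that fell and 22.4% that rose. With double RNAi against ecd RNAi, 8 rose (all but ush and Mef2) and 0 fell, beside 26.7% of all genes that rose and 20.6% that fell. With double RNAi against control, 0 of 10 passed in limma, 0 passed in the authors' deposited table and 1 (tup) had an unadjusted p under 0.05, beside 4.39% of all genes that passed in either direction in limma and 9.52% in the authors' deposited table. Without the 4 fat body-rich libraries, 4 of the 10 genes fell in the first comparison, beside 22.2% of all genes, and 6 rose in the second, beside 21.8%. The comparisons share libraries, since the ecd RNAi libraries enter both of the first 2, so a low ecd RNAi value lowers one change and raises the other.

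**Figure D1:**
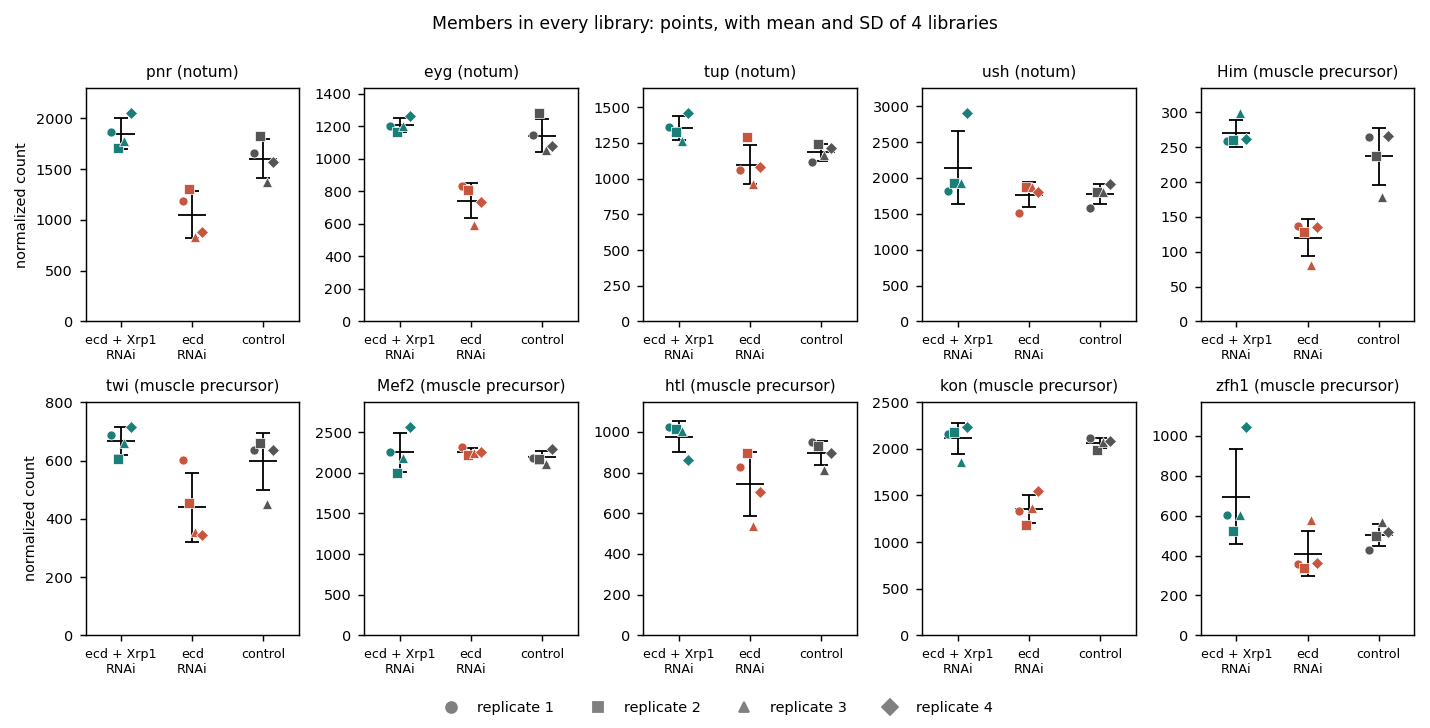
Normalized counts (y axes, linear, starting at 0) of the 10 genes in each of 12 libraries; groups run from ecd plus Xrp1 RNAi through ecd RNAi to control, marker shapes give the replicate number, and bars give the mean and SD of 4 libraries. The ecd RNAi points of pnr, eyg, Him and kon lie below every other point of their panel, while those of Mef2 lie among the control points or just above them.

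The 2 notum transcription factor genes pnr and eyg moved by similar amounts. pnr (FBgn0003117, chromosome 3R, 16026079 to 16041796, build BDGP6) was read at 1864, 1704, 1777 and 2054 normalized counts in the 4 libraries with ecd plus Xrp1 RNAi, at 1187, 1304, 827 and 883 in those labelled ecd RNAi, and at 1655, 1823, 1368 and 1569.6 in control. The ecd RNAi libraries were all lower than the lowest control, and within them the fat body-rich replicates 3 and 4 were the lowest. It fell by 0.63 ± 0.14 with ecd RNAi against control (adjusted p = 0.00204), or by 35.4% in linear terms. Without the fat body-rich libraries it fell by 0.48 (adjusted p = 0.00441). With Xrp1 RNAi added, pnr was 0.84 ± 0.14 higher than with ecd RNAi alone (adjusted p = 2.67e-04) and 0.21 ± 0.14 from control (adjusted p = 0.391, 95% interval -0.09 to 0.51), with ranges that overlapped control.

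eyg (FBgn0000625, chromosome 3L, 12462537 to 12468021) was read at 1202, 1168, 1200.5 and 1267 normalized counts with ecd plus Xrp1 RNAi, at 831, 809.8, 595 and 733 with ecd RNAi, against 1150.0, 1284, 1054.5 and 1082 in control. As for pnr, the 4 ecd RNAi libraries stood below both other groups with no overlap, and replicate 3 was the lowest of them. The change against control was -0.63 ± 0.10 (adjusted p = 1.62e-04) and that of double RNAi against ecd RNAi was 0.71 ± 0.10 (adjusted p = 6.57e-05). Against control, the double RNAi libraries differed by 0.09 ± 0.10 (adjusted p = 0.641, 95% interval -0.13 to 0.30). Their 4 values were also close to each other, with a mean of 1209 ± 41.4 (SD, n = 4), against 742 ± 107 with ecd RNAi and 1143 ± 102 in control.

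The genes of the pnr partners, tup and ush, did not pass with ecd RNAi against control. tup (FBgn0003896, chromosome 2L, 18859507 to 18881261) was read at 1364, 1324, 1261 and 1460.4 normalized counts with ecd plus Xrp1 RNAi, at 1060.2, 1291, 960.1 and 1081 with ecd RNAi, and in control at 1113, 1241, 1162 and 1216. Its ecd RNAi and control values overlapped, because ecd RNAi replicate 2 was higher than every control, and the difference of -0.11 ± 0.08 did not pass (adjusted p = 0.286, 95% interval -0.29 to 0.07). Without that library it was -0.20 (adjusted p = 0.0353), without ecd RNAi replicate 3 -0.05 (adjusted p = 0.608) and without the fat body-rich libraries -0.0068 (adjusted p = 0.966), and the adjusted p ran from 0.0353 to 0.966 over 25 alternatives. tup rose by 0.31 ± 0.08 with double RNAi against ecd RNAi (adjusted p = 0.00846), a call that ended without the fat body-rich libraries (0.21, adjusted p = 0.112). All 4 double RNAi libraries were above all 4 controls, the only such gene of the 10, beside 8.95% of all genes tested; the difference of 0.19 ± 0.08 did not pass (adjusted p = 0.209).

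ush (FBgn0003963, chromosome 2L, 476220 to 540560), the cofactor gene, stood at 1814, 1925, 1922.5 and 2907 normalized counts with ecd plus Xrp1 RNAi, at 1504, 1870.2, 1878 and 1807.5 with ecd RNAi, against 1584, 1802.5, 1807 and 1916 in control. The ecd RNAi and control values covered nearly the same range, and replicate 4 of the double RNAi stood apart above all other libraries. The 95% interval of the change with ecd RNAi ran from -0.30 to 0.27 around -0.01 (adjusted p = 0.951). Neither double RNAi against ecd RNAi (0.26 ± 0.13, adjusted p = 0.129, 95% interval -0.03 to 0.55) nor against control (0.25 ± 0.13, adjusted p = 0.297) passed. Without replicate 4 of the double RNAi these values were 0.10 (adjusted p = 0.359) and 0.09 (adjusted p = 0.604). As a description chosen after the values were seen, pnr per 100 normalized counts of ush was 70.7 to 103 with ecd plus Xrp1 RNAi, 44.0 to 78.9 with ecd RNAi and 75.7 to 104.5 in control, so that this ratio overlapped between ecd RNAi and each other group.

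Among the myoblast genes, Him showed the most change of the 10. It encodes a nuclear protein that antagonises Mef2 in muscle progenitors and lies on chromosome X (FBgn0030900, 18209427 to 18210741). Him was read at 259, 260.1, 299 and 262.5 normalized counts with ecd plus Xrp1 RNAi, at 137, 129, 80.9 and 135 with ecd RNAi, and in control at 265, 238, 178 and 266. The ecd RNAi values did not reach the lowest control, and replicate 3 was the lowest library in both ecd RNAi and control. Him fell by 0.98 ± 0.18 with ecd RNAi (adjusted p = 5.02e-04), to 120.4 ± 26.6 against 237 ± 41.2 in control (SD, n = 4). With Xrp1 RNAi added it was 1.19 ± 0.18 higher than with ecd RNAi (adjusted p = 1.29e-04), and 0.20 ± 0.18 from control (adjusted p = 0.522). The fall was 0.92 without the fat body-rich libraries (adjusted p = 4.54e-04) and 1.05 in replicates 3 and 4 alone (adjusted p = 0.0394).

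Mef2, the factor on which Him acts, was the gene with the narrowest intervals. Its levels were 2261, 1997, 2178 and 2567.5 normalized counts with ecd plus Xrp1 RNAi, 2318, 2221, 2238 and 2254 with ecd RNAi, and 2184, 2168, 2113 and 2293 in control (FBgn0011656, chromosome 2R, 9913496 to 9958858). All 3 groups overlapped. The 95% interval of the change was -0.10 to 0.19 with ecd RNAi against control (adjusted p = 0.619), -0.15 to 0.13 with double RNAi against ecd RNAi (adjusted p = 0.913) and -0.11 to 0.18 with double RNAi against control (adjusted p = 0.793). These intervals leave out changes of the size seen for Him. Per 100 normalized counts of Mef2, Him stood at 10.2 to 13.7 with ecd plus Xrp1 RNAi, 3.62 to 6.0 with ecd RNAi and 8.43 to 12.1 in control; this ratio was also chosen after the values were seen and has no test.

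twi (FBgn0003900, chromosome 2R, 22985374 to 23048325) encodes the bHLH factor that marks these myoblasts from the embryo onward. It stood at 687.5, 605, 661.5 and 716 normalized counts with ecd plus Xrp1 RNAi, at 602, 455, 356 and 343 with ecd RNAi, against 637, 662, 451 and 638 in control. The ecd RNAi and control groups overlapped: ecd RNAi replicates 1 and 2 exceeded control replicate 3, and the fat body-rich libraries were the lowest of their groups except for control replicate 4. twi fell by 0.46 ± 0.17 with ecd RNAi (adjusted p = 0.0378), and the call was lost in 10 of 25 alternatives, with adjusted p from 0.00329 to 0.111. These include leaving out control replicate 1 (0.0889), 2 (0.1) or 4 (0.0892), ecd RNAi replicate 2 (0.0503), 3 (0.102) or 4 (0.111), double RNAi replicate 3 (0.0503), and all fat body-rich libraries (-0.31, adjusted p = 0.094). In the double RNAi, twi was 0.64 ± 0.17 higher than with ecd RNAi (adjusted p = 0.00748) with no overlap. The rise was 0.35 without the fat body-rich libraries (adjusted p = 0.0394) and 0.98 in replicates 3 and 4 alone (adjusted p = 0.00565). In those replicates the ecd RNAi libraries are fat body-rich and the double RNAi libraries are not, so fat body content goes with the group. Against control, twi with double RNAi differed by 0.18 ± 0.17 (adjusted p = 0.569).

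zfh1 (FBgn0004606, chromosome 3R, 30765926 to 30789202) encodes a zinc finger homeodomain repressor that keeps muscle progenitors undifferentiated. It was read at 604, 525, 605 and 1046 normalized counts with ecd plus Xrp1 RNAi, at 356, 339, 579 and 365 with ecd RNAi, and in control at 429.4, 496.5, 568 and 516.5. One library in each RNAi group departed from the others: replicate 4 of the double RNAi was the highest of all 12, and ecd RNAi replicate 3 lay above every control while the other three lay below every control. The change with ecd RNAi was -0.32 ± 0.21 (adjusted p = 0.236). It passed without ecd RNAi replicate 3 (-0.50, adjusted p = 0.0493) and in the fit of those groups alone with the replicate number as a block (adjusted p = 0.048). It was -0.24 without ecd RNAi replicate 2 (adjusted p = 0.431) and -0.24 in replicates 3 and 4 alone (adjusted p = 0.604). zfh1 rose by 0.74 ± 0.21 with double RNAi against ecd RNAi (adjusted p = 0.0111), and against control the difference was 0.42 ± 0.21 (adjusted p = 0.265), or 0.21 without double RNAi replicate 4 (adjusted p = 0.544). Both ush and zfh1 are also expressed in hemocytes, the blood cells of the larva, of which 11 of 11 markers had a row. They summed to 21510.3 to 27961 normalized counts with ecd plus Xrp1 RNAi, 11445 to 13973 with ecd RNAi and 26094 to 30847.5 in control. Ppn, which encodes the matrix protein Papilin, made up most of that sum, at 18080 to 24547.5 normalized counts with ecd plus Xrp1 RNAi, 7095 to 9737 with ecd RNAi and 22643.5 to 26751 in control. The other 10 markers, a sum taken after the values were seen, came to 3344, 3626, 3430 and 3413 in the double RNAi replicates 1 to 4, to 4204 to 4350 with ecd RNAi and to 3451 to 4697 in control, and NimC4 was listed at 0 in 8 of the 12 libraries. The defining marker Hml stood at 371, 493, 401 and 461 in the double RNAi replicates 1 to 4. Replicate 4, where ush and zfh1 were high, had the highest sum of all markers (27961), Ppn (24547.5) and marker He (44.5) of its group. The sum without Ppn, Hml and the other markers read above 0 were highest in other replicates of that group. The part of hemocytes in these values was not tested.

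The remaining myoblast genes encode surface proteins. htl (FBgn0010389, chromosome 3R, 18045216 to 18052984), the FGF receptor gene, stood at 1026, 1015, 1003 and 864 normalized counts with ecd plus Xrp1 RNAi, at 829, 897, 538 and 707 with ecd RNAi, against 948.5, 929.5, 814 and 896 in control. Groups overlapped in each comparison, with ecd RNAi replicate 3 lowest of all. The change with ecd RNAi was -0.30 ± 0.13 (adjusted p = 0.0822). It passed with the replicate number as a block, which largely separates replicates 1 and 2 from 3 and 4 (adjusted p = 0.0466, or 0.0376 with only those groups in the fit) and without ecd RNAi replicate 2 (-0.40, adjusted p = 0.022). It was -0.15 without ecd RNAi replicate 3 (adjusted p = 0.209) and -0.12 without the fat body-rich libraries (adjusted p = 0.331). htl rose by 0.42 ± 0.13 with double RNAi against ecd RNAi (adjusted p = 0.0192), a call lost without double RNAi replicate 1 (adjusted p = 0.0504) and without the fat body-rich libraries (0.18, adjusted p = 0.118). Without ecd RNAi replicate 3 that rise was 0.27 (adjusted p = 0.0322). Against control it was 0.12 ± 0.13 (adjusted p = 0.615).

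kon (FBgn0032683, chromosome 2L, 18487747 to 18503978) encodes a transmembrane protein that muscles use to reach and attach to tendon cells. It had 2163, 2178, 1862 and 2237 normalized counts with ecd plus Xrp1 RNAi, 1327, 1178, 1367 and 1543 with ecd RNAi, and 2117, 1982.5, 2069.9 and 2078.5 in control. The ecd RNAi libraries formed a group of their own well below the rest. Its fall with ecd RNAi, 0.61 ± 0.08, had the smallest adjusted p of the 10 (3.65e-05), and so had its rise with double RNAi against ecd RNAi, 0.64 ± 0.08 (adjusted p = 2.99e-05). Against control the double RNAi libraries differed by 0.03 ± 0.08, with a 95% interval of -0.14 to 0.20 (adjusted p = 0.859). The change with ecd RNAi was -0.51 in replicates 3 and 4 alone (adjusted p = 0.015) and -0.71 without the fat body-rich libraries (adjusted p = 6.09e-04).

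**Figure D2:**
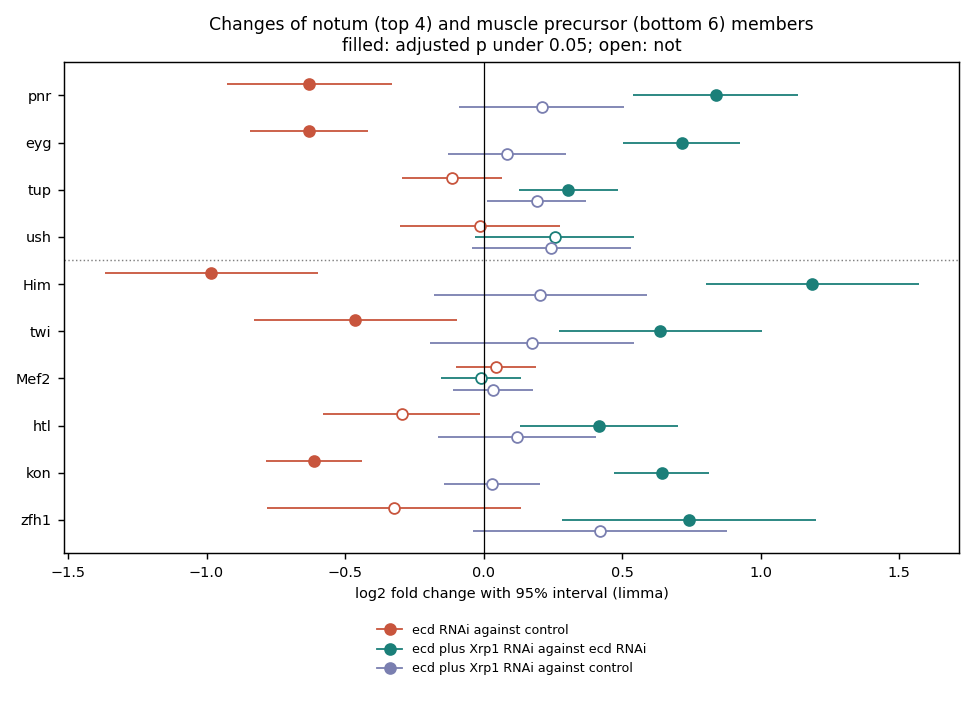
Log2 fold changes (x axis) with 95% intervals from limma for each gene (rows, notum genes above the dotted line and myoblast genes below) in the 3 comparisons; filled points passed at an adjusted p under 0.05. Changes with ecd RNAi against control lie between -0.98 (Him) and 0.04 (Mef2), those with double RNAi against ecd RNAi between -0.01 (Mef2) and 1.19 (Him), and all 10 with double RNAi against control are open points between 0.03 (kon) and 0.42 (zfh1).

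Set side by side, the 4 notum genes and the 6 myoblast genes gave similar medians. With ecd RNAi against control the median change was -0.37 for notum genes and -0.39 for myoblast genes, against -0.04 for all genes tested. With double RNAi against ecd RNAi it was 0.51 and 0.64, against -0.01, and with double RNAi against control 0.20 and 0.15, against 0.00. The spread within each group was wider than the distance between them, since each held genes that fell and at least 1 near 0 (ush and Mef2). With ecd RNAi, 4 of the 10 genes lay below control with no overlap, beside 23.3% of all genes tested. With ecd plus Xrp1 RNAi, 5 lay above ecd RNAi with no overlap, beside 24.4%. The 5 genes that fell with ecd RNAi were all among the 8 that rose when Xrp1 RNAi was added; of the 2587 genes that fell in the whole table, 2202 (85.1%) did so. The authors' deposited table called the same 5 genes lower, with adjusted p from 2.9e-11 (kon) to 0.0404 (twi), beside 20.4% of its genes with an adjusted p. With Xrp1 RNAi added, the authors' deposited table called 8 higher, beside 22.2%.

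Averaged over the genes of each set, every ecd RNAi library stood below every control library. The mean log2 difference of the 4 notum genes from their control means was 0.10 to 0.38 in libraries with ecd plus Xrp1 RNAi, -0.52 to -0.14 with ecd RNAi and -0.08 to 0.11 in control. For the 6 myoblast genes it was 0.06 to 0.30, -0.55 to -0.32 and -0.13 to 0.07 in the same groups. The ecd RNAi replicate 3 was the lowest library for both sets and double RNAi replicate 4 the highest. These averages describe the libraries and carry no test.

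Compared per length, the levels in control ran from 418 ± 49.2 normalized counts per kb of the longest transcript for pnr (SD, n = 4) to 77.1 ± 8.79 for zfh1. eyg (363), Mef2 (363) and tup (357) came next to pnr, then ush (292), Him (257), twi (252), kon (249) and htl (234). Neighbours in this order overlapped in their control ranges except tup over ush and htl over zfh1. With ecd RNAi the per-kb levels of pnr (273 ± 60.3), eyg (236 ± 33.9) and Him (131 ± 28.9) were below the control means, while that of Mef2 (374 ± 6.99) was not.

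Of the 8269 other genes with a mean of at least 50, those whose centred log2 values lay nearest to the mean notum profile over the 12 libraries were ss (root mean square distance 0.0611), Cortactin (0.0687) and sns (0.0701). For the myoblast profile they were Mnn1 (0.0629), sns (0.0666) and GckIII (0.0683). The genes that make up each profile were themselves farther from it, at 0.119 to 0.216 for the notum genes and 0.150 to 0.325 for the myoblast genes. sns, which encodes the adhesion protein of fusion-competent myoblasts, was near both profiles, with means of 1540 normalized counts with ecd plus Xrp1 RNAi, 1035 with ecd RNAi and 1387 in control.

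Other genes of the same tissues were taken from lists. Their counts stand beside 25.4% of all genes that fell and 22.4% that rose with ecd RNAi. With double RNAi against ecd RNAi, 26.7% of all genes rose and 20.6% fell. Of 13 further notum and proximal disc genes tested, 8 fell and 2 rose with ecd RNAi (median -0.38), and 9 rose and 2 fell with double RNAi against ecd RNAi (median 0.40). Among the 13, ara, hth and tsh are also in the hinge list below. Without them, 6 of 10 fell and 2 rose with ecd RNAi (median -0.32), and 7 rose and 2 fell with double RNAi against ecd RNAi (median 0.39). The steepest fall was that of sr, which specifies tendon precursors in the notum, to 264 ± 56.1 normalized counts with ecd RNAi against 601 ± 77.3 in control (-1.21 ± 0.16, adjusted p = 3.83e-05). The proneural gene sc followed with 395 ± 32.5 against 814 ± 31.1 (-1.04 ± 0.07, adjusted p = 1.99e-07). Bulk discs do not show in which region of the disc a transcript of this list changed. With Xrp1 RNAi added, sr was 1.45 ± 0.16 and sc 0.86 ± 0.07 higher than with ecd RNAi (adjusted p = 1.01e-05 and 1.33e-06). The opposite direction was taken by vn, which encodes an EGFR ligand made in the notum (3470.0 ± 421 with ecd RNAi against 2450.0 ± 172 in control, 0.50 ± 0.10, adjusted p = 9.11e-04), and by tio, a zinc finger gene related to tsh (1960.0 ± 101 against 1249 ± 77.5, 0.65 ± 0.09, adjusted p = 6.31e-05). Both were lower with ecd plus Xrp1 RNAi than with ecd RNAi (-0.33 and -0.32, adjusted p = 0.0137 and 0.0104). Notum genes thus did not all move one way.

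Among 13 further genes expressed in the myoblasts are vg and sd of the pouch list and stumps of the FGF list. Of the 13, 8 fell and 1 rose with ecd RNAi (median -0.27). With double RNAi against ecd RNAi, 8 rose and 1 fell (median 0.27). Bulk discs do not show in which cells of the disc these transcripts changed. Ama, which encodes a secreted immunoglobulin-domain protein, had 3391 ± 782 normalized counts with ecd RNAi against 5711 ± 411 in control (-0.78 ± 0.14, adjusted p = 5.57e-04). lms, a homeobox gene of myoblasts that form direct flight muscles, fell by 0.68 ± 0.23 (adjusted p = 0.0305). The RNA-binding protein gene how and Ama rose most with Xrp1 RNAi added, by 0.64 ± 0.08 and 0.68 ± 0.14 against ecd RNAi (adjusted p = 4.32e-05 and 0.00161). SPARC, which encodes a collagen-binding matrix protein, was the gene that rose with ecd RNAi, by 0.54 ± 0.08, and fell with Xrp1 RNAi added, by 0.59 ± 0.08 (adjusted p = 6.86e-05 and 3.94e-05). Without those 3 shared genes, left out after the values were seen, 6 of 10 fell and 1 rose with ecd RNAi (median -0.29). With double RNAi against ecd RNAi, 5 of these 10 rose and 1 fell (median 0.20). vg was the gene of this list that passed with double RNAi against control (0.31 ± 0.07, adjusted p = 0.0242).

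FGF signalling genes around htl, ligands and downstream genes together, moved both ways, with ecd RNAi at rates near those of all genes. Of these 10 genes, 3 fell and 2 rose with ecd RNAi (median -0.03), beside 25.4% and 22.4% of all genes. With double RNAi against ecd RNAi, 4 rose and 1 fell (median 0.17), beside 26.7% and 20.6%. The ligand gene pyr was read at 596 ± 62.6 normalized counts with ecd plus Xrp1 RNAi, 395.5 ± 43.9 with ecd RNAi and 537 ± 44.6 in control, and it fell by 0.44 ± 0.10 with ecd RNAi (adjusted p = 0.00289) and rose by 0.59 ± 0.10 with Xrp1 RNAi added (adjusted p = 4.04e-04). The other ligand gene, ths, was at 2541 with ecd RNAi and 2212 in control and did not pass (0.20 ± 0.08, adjusted p = 0.054). Ras85D, the Ras GTPase gene, fell by 0.42 ± 0.08 with ecd RNAi (adjusted p = 7.22e-04) and rose by 0.42 ± 0.08 with Xrp1 RNAi added (adjusted p = 7.93e-04). sty, which encodes the pathway inhibitor Sprouty, rose by 0.35 ± 0.07 with ecd RNAi (adjusted p = 7.54e-04) and fell by 0.31 ± 0.07 with Xrp1 RNAi added (adjusted p = 0.00209), and csw, a phosphatase gene of the pathway, rose by 0.20 ± 0.08 with ecd RNAi (adjusted p = 0.0411).

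Genes of later steps in muscle formation were counted in the same way. Of 11 myoblast fusion genes, 3 fell and 3 rose with ecd RNAi (median 0.15), beside 25.4% and 22.4% of all genes. With Xrp1 RNAi added, 3 fell and 2 rose (median -0.05), beside 20.6% and 26.7%. The adhesion genes sns and rst each fell by 0.42 with ecd RNAi (adjusted p = 1.90e-04 and 1.13e-04), whereas blow and sing rose by 0.85 and 0.48 (adjusted p = 3.13e-06 and 0.0303). Of 16 genes of differentiated muscle, 3 rose and 1 fell with ecd RNAi (median 0.51), which is 18.8% that rose beside 22.4% of all genes, and 6 fell and 2 rose with Xrp1 RNAi added (median -0.68). Mlc2, a myosin light chain gene, had 275 ± 54.4 normalized counts with ecd plus Xrp1 RNAi, 1132 ± 161 with ecd RNAi and 386 ± 147 in control (1.61 ± 0.22 with ecd RNAi against control, adjusted p = 6.19e-05). sls, the titin-like gene, also rose with ecd RNAi (1.17 ± 0.15, adjusted p = 3.09e-05), and Tm1 fell (-0.33 ± 0.05, adjusted p = 2.73e-04). Of the 11 of these genes with a change above 0, 3 passed. In ecd RNAi replicate 3, Mhc stood at 884 normalized counts against 277 to 370 in the other ecd RNAi libraries and up at 402 against 84.6 to 141. Without that library the median with ecd RNAi against control was 0.12, with 3 genes that rose and 2 that fell, and without the 4 fat body-rich libraries it was 0.39. With double RNAi against ecd RNAi, 3 of the 16 fell without that library (median -0.51) and 3 without the fat body-rich libraries (median -0.30). Of all genes, 1960 and 2016 fell in these fits, beside 2097 with all libraries. In replicates 3 and 4 alone, 7 of the 16 fell (median -0.85), beside 2597 of all genes. There the ecd RNAi libraries are fat body-rich and the double RNAi libraries are not, and 8 of 8 fat body markers also fell (median -3.36).

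**Figure D3:**
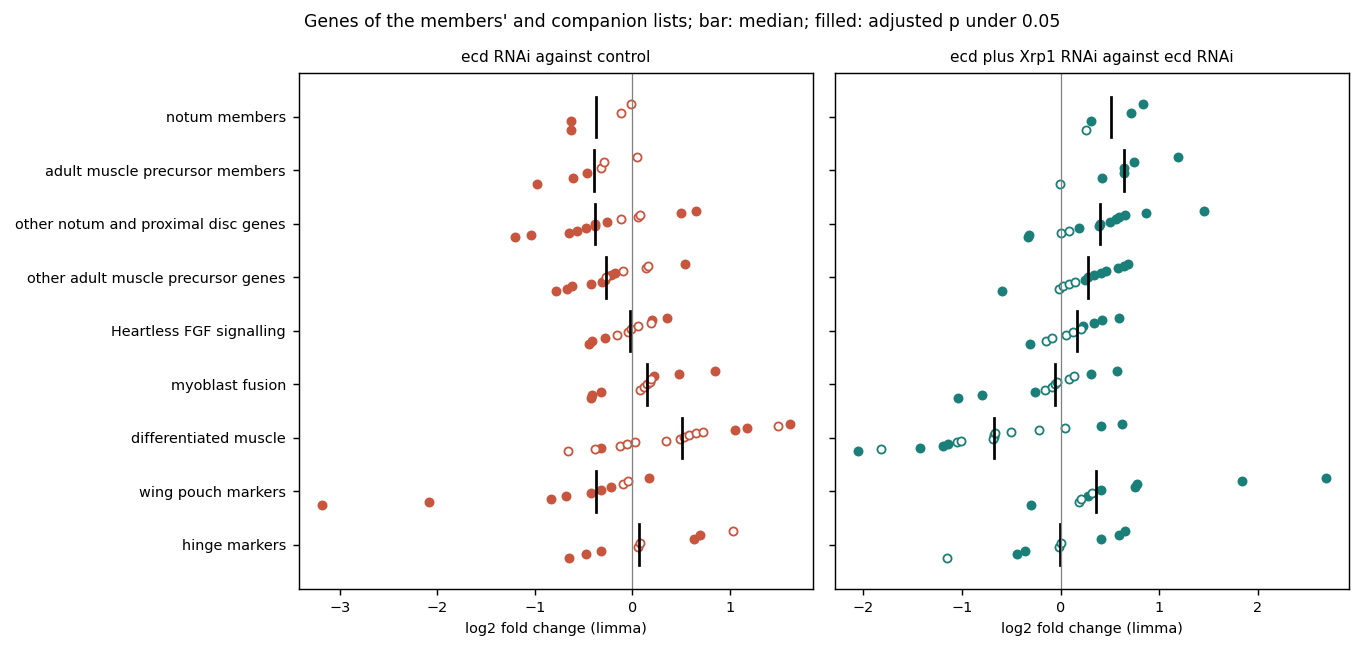
Log2 fold changes (x axes) of every tested gene of the notum and myoblast sets and of 7 further lists (rows); black bars mark medians and filled points passed at an adjusted p under 0.05. With ecd RNAi against control (left) the medians of both sets and of the further notum, myoblast and pouch lists lie left of 0 and that of differentiated muscle lies right, and with double RNAi against ecd RNAi (right) these sides are exchanged.

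Inside the driver's domain, 7 of 10 wing pouch markers fell and 1 rose with ecd RNAi (median -0.37, or -0.55 over the 8 without vg and sd), and 6 rose and 1 fell with Xrp1 RNAi added (median 0.36). The median of -0.37 stands beside -0.37 for the 4 notum genes and -0.39 for the 6 myoblast genes, and no difference between the lists was tested. The single genes reached farther in the pouch. sens, a proneural factor gene, was at 148 ± 16.5 normalized counts with ecd plus Xrp1 RNAi, 23.0 ± 8.47 with ecd RNAi and 209.6 ± 23.6 in control, a change of -3.18 ± 0.21 with ecd RNAi (adjusted p = 8.35e-08). The counts of this paragraph with ecd RNAi stand beside 25.4% of all genes that fell and 22.4% that rose. Of the markers of other cells the discs could hold, 3 of 5 peripodial genes fell with ecd RNAi and 0 rose. For hemocyte genes 4 of 10 fell and 2 rose, for tracheal genes 3 of 7 fell and 2 rose, and 1 of 8 fat body genes fell and 1 rose. Of 8 hinge genes, among them ara, hth and tsh of the further notum list, 3 fell and 2 rose. Of 5 glia genes 1 fell and 2 rose, and of 7 neuron genes 0 passed.

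Intron retention was examined because ecd acts with the spliceosome. The authors' table holds 17817 introns with a retention ratio as the mean of each group and no replicate values that could be tied to the labels, and 30 of the introns belong to 7 of the 10 genes. Him, htl and zfh1 had none in it. In kon, introns 8, 9, 10 and 11 of transcript FBtr0300341 were retained at 14.0%, 10.6%, 10.7% and 20.2% with ecd plus Xrp1 RNAi, at 37.0%, 38.1%, 36.3% and 38.1% with ecd RNAi, against 14.2%, 17.6%, 22.5% and 19.4% in control. All 4 were thus 13.7 to 22.8 percentage points higher with ecd RNAi than in control, yet none was called in that comparison by the authors (adjusted p = 0.101, 0.176, 0.373 and 0.174), where 2.32% of all introns were. With double RNAi against ecd RNAi, intron 9 (chromosome 2L, 18491484 to 18491540) was called lower (authors' adjusted p = 0.0258), the only one of the 30, beside 0.208% of all introns. The counts behind these ratios were low, at a mean of 15.5 to 21.4 per intron.

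The introns of these genes gave other values than the whole table. Of all 30 introns of the 10 genes, 13 (43.3%) had a higher ratio with ecd RNAi than in control, with a median difference of -0.42 percentage points, whereas 64.0% of all introns of the table were higher, with a median of 0.94. Of the 26 outside kon, a split made after the values were seen, 9 were higher. The differences ran from -5.27 to 2.06 percentage points in Mef2, -8.56 to 4.5 in eyg, -0.99 to 1.15 in pnr, -6.67 to 2.65 in tup and -4.5 to 3.88 in ush, and the single intron of twi gave -0.86. Introns of 1 gene share its transcripts and are not replicates.

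**Figure D4:**
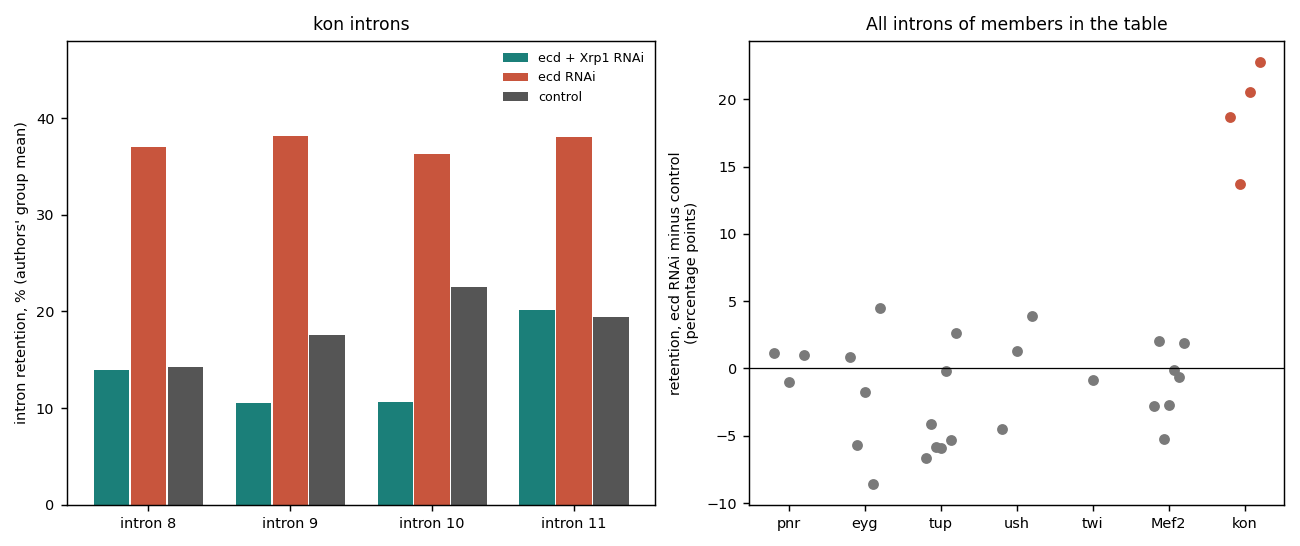
Left, retention (y axis, percent, the authors' group means, with no error available) of the 4 kon introns with ecd plus Xrp1 RNAi, ecd RNAi and control; right, the difference of ecd RNAi minus control in percentage points for all 30 introns by gene. The kon bars for ecd RNAi stand at 36.3% to 38.1%, above both other groups, and the kon points at 13.7 to 22.8 lie above those of the other genes.

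Several of the genes overlap others in the annotation, and the sources used here do not give whether reads were counted by strand. kon shares 275 exon bases with grnd on the opposite strand, and grnd, at 2542 to 3628 normalized counts with ecd RNAi and 2666 to 3064 in control, did not pass (0.16, adjusted p = 0.191). The 4 kon introns lie outside grnd, which spans 18485417 to 18488021. The authors' category of all 4 was anti-near, for an antisense feature near the intron, and that of every pnr intron was the same. What antisense reads add to these ratios was not tested. Within the span of twi, on the opposite strand and with no shared exon base, lie CG42741 and CG9896. CG42741 fell by 0.61 with ecd RNAi (adjusted p = 0.00298) and rose by 0.72 with Xrp1 RNAi added (adjusted p = 0.00106). CG9896 fell by 0.74 (adjusted p = 3.10e-04) and rose by 0.66 (adjusted p = 8.15e-04). twi shares 245 exon bases with CG9897 on the opposite strand and 291 with asRNA:CR42742 on the same strand. Both were read at 1.02 normalized counts or less in every library. Within the span of ush, on the opposite strand and also with no shared exon base, cbt rose by 1.09 with ecd RNAi (adjusted p = 3.27e-07), while ush itself did not pass. ush shares 524 exon bases with lncRNA:CR46258 on the same strand, which stood at 68.8 to 148 normalized counts over the 12 libraries. eyg, Him and htl overlap no annotated gene.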

How the data were processed

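Per the labels' protocols, total RNA of pooled wing discs was extracted with TRI Reagent, treated with DNase and made into stranded libraries depleted of ribosomal RNA. The series' text and the extract protocol differ on read layout and instrument, so neither is taken as known. Build BDGP6, kallisto 0.46.1, DESeq2 1.34.0, cutadapt 3.5 and FastQC are listed, per the submitters' processing notes, with no order or settings.

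As main values, the authors deposited one signal per gene and library, counts normalized to a common scale for the 12 libraries. Of the low values, 37.7% to 74.7% per library were whole multiples of 1 read (tolerance 0.03), which is too few for recovering counts; count models were therefore not used, and the precision of a value is that of the spread between 4 libraries. Per the file headers, a second table holds the authors' log2 fold changes with test scores, p-values and the adjusted p. Another table, per the file headers, holds intron retention as a fraction, given here as percent, with the authors' p-values; its 12 columns of ratios per sample carry no name that the labels give and were left unused. All 17817 introns matched BDGP6 introns once the deposited start was raised by 1.

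Non-gene rows were left out, as were genes with a mean under 10. These rows held 0.546% to 0.645% of a library's signal with ecd plus Xrp1 RNAi, 5.65% to 7.40% with ecd RNAi and 0.452% to 0.515% in control. Symbols were found for 17790 gene IDs; 135 symbols of the gene lists matched a row and 4 did not (BarH1, BarH2, hbs and dys). A linear model per gene, with the 3 groups as its terms, took log2(value + 1), which understates changes of low genes, over all 12 libraries, using limma 3.58.1 under R 4.3.3 with trended empirical Bayes variances. All tests are two-sided with Benjamini-Hochberg adjustment over 10179 genes, and the script was tested on simulated data. Replicates are called biological in the labels with no further detail, so p-values measure the spread between these samples.

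The genes, the lists and the set of fat body-rich libraries were chosen with earlier results of these data known. Named genes are the 10 listed, nub, ecd and Xrp1, from each further list up to 2 that passed and rose most and up to 2 that fell most in a comparison, the 3 genes nearest to each mean profile, and introns called by the authors or changed most; a part of these is described. ths, Mhc, up, hemocyte genes, genes that 2 lists share and genes that overlap others were named after their values were seen. Groups share replicate numbers in the sample titles. The sample descriptions carry other numbers. These are also shared for replicates 2, 3 and 4 of control and ecd RNAi and for replicate 1 of control and double RNAi, but not for the other same-numbered pairs. Deviations from group means of same-numbered libraries correlated at 0.533, 0.412, 0.559 and 0.235 between ecd RNAi and control, so a block by number was added there. Libraries of another number in the same pair of numbers (1 and 2, or 3 and 4) correlated at 0.474 to 0.572 and those of the other pair at -0.595 to -0.355, and 2 of the 4 ecd RNAi libraries correlated best with the control of their own number, so the block largely separates replicates 1 and 2 from 3 and 4. Same-numbered libraries correlated at -0.347 to -0.131 in pairs with ecd plus Xrp1 RNAi, where the numbers do not pair. The pairing comes from the data, since the labels name no shared batch. Alternatives changed the pseudocount, the filter, the scaling, weights, groups in the fit, the block and the libraries used.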

Additional observations from a re-analysis of the deposited data

Results flagged for a closer look

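In 7 of the 30 pairs of a gene and a group, 1 of the 4 libraries stood apart by Dixon's ratio, the gap to the nearest library divided by the whole range, set against its 95% critical value. Chance alone marks about 1 in 20 groups. In libraries with ecd plus Xrp1 RNAi, replicate 4 was high for ush (ratio 0.898) and zfh1 (0.846) and low for htl (0.861), and replicate 3 was high for Him (0.905). In those labelled ecd RNAi, replicate 3 was low for Him (0.858) and high for zfh1 (0.893), and in control replicate 3 was low for twi (0.883). Control replicate 3 and ecd RNAi replicate 3 are both fat body-rich libraries, with summed marker levels of 26976.5 in the ecd RNAi library and 78023 in the control library. The part of fat body in these values was not tested.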

How the results depend on the processing

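Of 730 values of the 10 genes recomputed under alternatives, 696 kept their direction and their side of the threshold, 14 lost the threshold, 8 passed newly and 12 changed sign. Calls changed for tup, twi, htl and zfh1, and most are given with those genes. With ecd RNAi against control, twi also lost its call with array weights (adjusted p = 0.0556) and with only those groups fitted (0.0811), zfh1 passed with array weights (0.0416) and htl under quantile normalization (0.0298). zfh1 with double RNAi against ecd RNAi lost its call in replicates 3 and 4 alone (0.79, adjusted p = 0.075). The count of the 10 genes that passed was 4 to 7 with ecd RNAi against control, 6 to 8 with double RNAi against ecd RNAi and 0 throughout with double RNAi against control; leaving out 1 library gave 4 to 6, 7 to 8 and 0. Of all genes, 3524 to 5374 passed with ecd RNAi against control, beside 4867 in the main fit. With double RNAi against ecd RNAi, 4123 to 5158 of all genes passed, beside 4810. With the replicate block, 6 genes passed with ecd RNAi (7 with only those groups fitted, an alternative added after seeing the data, as was that of replicates 3 and 4 alone), 8 with double RNAi against ecd RNAi and 0 against control; no call of the 10 genes other than those of htl and zfh1 changed under it. Of all genes, 2655 fell with ecd RNAi under the block (2844 with only those groups fitted), beside 2587 in the main fit.

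All sign changes were of values near 0 that did not pass. ush with ecd RNAi against control was 0.0356 under quantile normalization, 0.0138 after rescaling without ribosomal rows, and -0.0666 to 0.0625 on leaving out 1 library. Mef2 with double RNAi against ecd RNAi was 0.0745 in replicates 3 and 4 alone and -0.0753 to 0.0455 on leaving out 1 library; against control it was -0.0374 with array weights and -0.0305 to 0.0902 on leaving out 1 library. For double RNAi against control, eyg was -0.00737 without the fat body-rich libraries and kon -0.0234 in replicates 3 and 4 alone. The causes were not tested.

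Over all genes, 447 passed with double RNAi against control. These became 1486 with array weights and 672 with only those groups fitted. Under quantile normalization 737 passed, and 242 to 585 on leaving out 1 library. In replicates 3 and 4 alone, 1532 passed (1238 lower and 294 higher, beside 214 and 233). There the control and ecd RNAi libraries are fat body-rich and the double RNAi libraries are not, so either comparison with double RNAi also compares fat body content. The median of all genes moved by less than 0.1 under each scaling. Depth was not recovered, so counting error stands only in the spread between libraries.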
